A study of Mus musculus with 12 samples.

Results

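Ribosome footprints and poly(A) RNA of 10 genes of the p53 pathway were followed in mouse embryonic stem cells: Trp53, which encodes p53, its inhibitor Mdm2, and the p53 targets Cdkn1a, Ccng1, Bax, Pidd1, Ei24, Eda2r, Zmat3 and Sesn2. They were chosen by gene symbol, and all 10 were found among the 22034 symbols of the footprint table and among the 49997 symbols of the RNA table. The cells were of the line ES-E14TG2a, grown on gelatin with LIF and the inhibitors CHIR99021 and PD0325901, which keep stem cells in the naive state. In every group, treated or not, the release factor eRF1 carried a dTAG degron, a tag through which the small molecule dTAG-13 brings a protein to the ubiquitin machinery for destruction. eRF1, the product of Etf1, recognises stop codons and lets the finished protein leave the ribosome.

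Footprints were measured in 4 groups of 2 libraries: Gcn2 knockout cells given 500 nM dTAG-13 for 1 h, untreated Gcn2 knockout cells, wild-type cells given 500 nM dTAG-13 for 1 h, and untreated wild-type cells. GCN2, missing in the knockout, is a kinase that senses stalled ribosomes and uncharged tRNA and starts the integrated stress response. Poly(A) RNA was measured in wild-type cells only, in 2 treated and 2 untreated libraries. The labels name no vehicle-treated cells and no treated cells without the tag, so an effect of the compound and an effect of losing eRF1 cannot be told apart, nor do they say how many clones each genotype stands for. dTAG-13 acts on the protein, so the counts of Etf1 do not check the treatment.

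p53 is a transcription factor that is made all the time and destroyed quickly, because MDM2 marks it for degradation. When DNA is damaged or ribosome production is disturbed, MDM2 lets go, p53 accumulates, and it switches on genes for cell cycle arrest, for apoptosis and for metabolic adjustment, among them Mdm2 itself. The control thus acts mainly on the p53 protein and not on Trp53 mRNA, and embryonic stem cells are known to hold much p53. Ribosome footprints count ribosomes on each mRNA, so they combine the amount of mRNA with how densely ribosomes sit on it. That density is not by itself a rate of protein synthesis.

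The spans of the members in the RefSeq annotation of GRCm38.p6, which has the coordinates of mm10, are as follows. Trp53 lies at chr11:69580348-69591873, Mdm2 at chr10:117688875-117710758, Cdkn1a at chr17:29090979-29100722 and Ccng1 at chr11:40748552-40755309. Ei24 lies at chr9:36779153-36797334, Eda2r at chrX:97333837-97377234, Bax at chr7:45461695-45466903, Pidd1 at chr7:141438113-141447565, Zmat3 at chr3:32334792-32365665 and Sesn2 at chr4:132492804-132510456. p53 binds pairs of a short palindromic element, so windows from 250 bases before to 50 bases after transcript starts given by RefSeq were searched for exact matches to the p53 half-site consensus, which reads the same on both strands. The RefSeq promoter windows covered 9 members (10 windows, since Cdkn1a has 2), all but Zmat3. These starts can lie inside the gene span: by 11 bases for Trp53, 23 for Ccng1, 25 for Eda2r, 5 for Bax, 3540 for Pidd1 and 2790 for the other window of Cdkn1a, and by 0 for the rest. An exact match stood in 6 of the 10 member windows, each of a different member, against 2745 of 32851 windows over all genes (8.36%). The members were chosen as genes of the p53 pathway, so these shares are not a test. The matches are shown because they are the letters near these starts that resemble what p53 binds, from the gene's own strand with the matching bases in capitals. Each is given with the distance from its first base to the start its window is built on. A match is a description of the letters and does not show binding.
Trp53 (chr11:69580259-69580318, plus strand, 75 bases before the start): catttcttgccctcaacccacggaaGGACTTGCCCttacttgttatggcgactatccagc
Mdm2 (chr10:117710910-117710969, minus strand, 186 bases before the start): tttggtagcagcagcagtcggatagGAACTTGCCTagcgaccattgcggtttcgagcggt
Cdkn1a (chr17:29090881-29090962, plus strand, 73 and 51 bases before the start): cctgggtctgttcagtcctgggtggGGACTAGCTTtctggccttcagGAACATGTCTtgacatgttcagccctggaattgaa
Ccng1 (chr11:40755437-40755496, minus strand, 185 bases before the start): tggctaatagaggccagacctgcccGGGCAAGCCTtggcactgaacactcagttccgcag
Ei24 (chr9:36797310-36797369, minus strand, 10 bases before the start): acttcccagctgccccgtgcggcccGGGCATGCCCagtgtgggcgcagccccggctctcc
Bax (chr7:45467065-45467124, minus strand, 201 bases before the start): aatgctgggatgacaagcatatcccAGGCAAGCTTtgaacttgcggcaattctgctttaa
The windows of Pidd1, Sesn2 and Eda2r, and the other window of Cdkn1a, held no exact match. Elements outside these windows were not searched.

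Counted reads ranged from 7874804 to 19691716 in the 8 footprint libraries and from 17462458 to 24256097 in the 4 RNA libraries. All 8 embryonic stem cell markers examined, Pou5f1 and Nanog among them, exceeded 1 CPM (reads of a gene scaled to a common library total) in every group. They summed to 8803 to 9619 CPM in footprints and to 5068 to 5168 CPM in RNA. Pou5f1 had 1048 to 1367 CPM in footprints but only 4.89 to 6.88 CPM in RNA. The reason was not tested, so comparisons of footprints with RNA are uncertain for single genes. Of 8 fibroblast markers, 4 exceeded 1 CPM in treated knockout footprints, 5 in each other footprint group and 2 in each RNA group. They summed to 47.2 to 94.3 CPM in footprints, of which Vim made up 40.9 to 79.4 CPM, with Postn at 0 throughout. In RNA they summed to 371 to 387 CPM, of which Vim alone made up 366 to 383 CPM. All members passed the filter on low counts in every comparison. Levels below are CPM scaled by library composition, and are compared within a gene, never between genes, since the counts are not per length. The scaling removes a change shared by most genes, so each rise or fall below is relative to the typical gene. A call means an adjusted p under 0.05 in edgeR's quasi-likelihood test over all genes tested, with Benjamini-Hochberg adjustment. With 2 libraries a group, an SD describes only the spread of that pair.

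**Figure D1:**
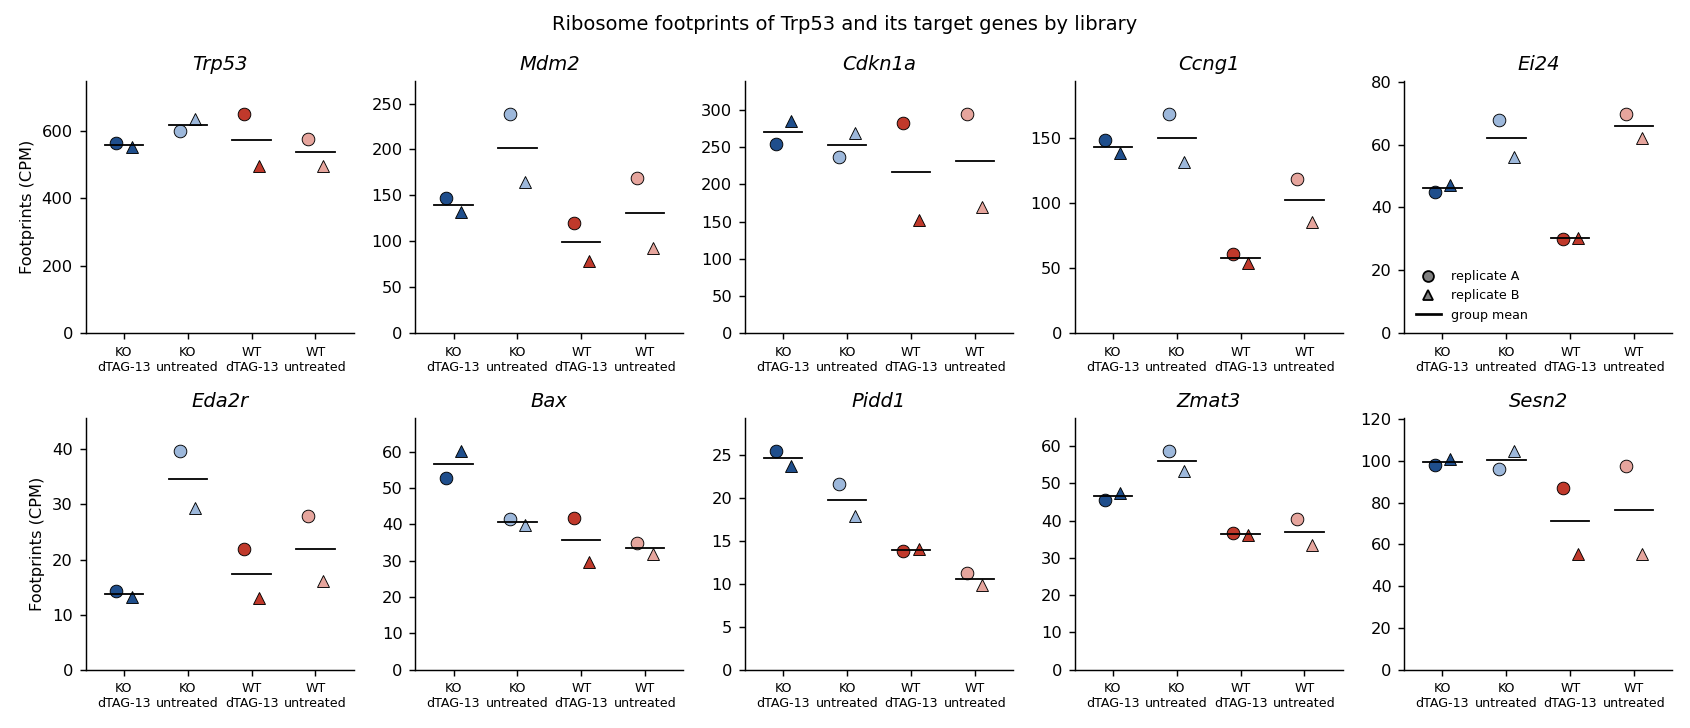
Footprint level of each member (CPM, linear axis from 0, scaled per panel) in the 8 footprint libraries; circles are replicate A, triangles replicate B and lines the mean of the 2 libraries of a group, knockout groups on the left and treated left of untreated. Ei24 and Ccng1 lay lower in both treated than in both untreated wild-type libraries, and Eda2r lay lower in both treated than in both untreated knockout libraries.

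After 1 h of dTAG-13, the footprints of 2 of the 10 members, Ei24 and Ccng1, fell in cells with intact Gcn2, and none was called higher. Over all 12267 genes, 4.88% were called, and 1.94% were called lower. Footprints of Trp53 and Mdm2 were not called, and neither were those of Cdkn1a, the best known readout of p53. The members' median log2 change was −0.11, beside −0.01 over all genes tested. It was 0.13 without untreated replicate A, −0.46 without untreated replicate B, −0.54 without treated replicate A and 0.09 without treated replicate B. Each of these fits sets a mean of A and B against a lone A or B, so differences between replicates enter the change. Since the libraries are bulk lysates, a change in some of the cells and a smaller change in all of them cannot be told apart.

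Ei24, a p53-induced membrane protein of the endoplasmic reticulum with a part in autophagy, had the largest change of the members in wild-type footprints. Its footprints were 29.99 and 30.4 CPM in treated wild-type cells, against 69.8 and 62.1 CPM in untreated wild-type cells. The groups did not overlap, and the treated pair was nearly identical. The log2 change was −1.13 (SE 0.137, 95% interval −1.42 to −0.83, adjusted p = 0.00133 by edgeR), a 2.18-fold lower level. The call held in every alternative, with log2 changes from −1.21 to −1.04. An overlapping lncRNA, Gm26787, had 0.123 to 0.230 CPM in the RNA libraries, and its part in the counts of Ei24 was not tested.

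Ccng1 encodes cyclin G1, a p53 target that brings a phosphatase to MDM2. Its footprints were 60.8 and 54.3 CPM in treated wild-type cells, against 118.8 and 85.4 CPM in untreated wild-type cells. Again the groups did not overlap, but the untreated libraries stood apart from each other. The log2 change was −0.83 (SE 0.168, 95% interval −1.19 to −0.47, adjusted p = 0.0140 by edgeR), a 1.78-fold lower level. The call rested on single libraries: the change was −0.57 (adjusted p = 0.104) without untreated replicate A and −0.75 (adjusted p = 0.0837) without treated replicate B. With only the 4 wild-type libraries in the fit, it was −0.83 (adjusted p = 0.0997).

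Trp53 footprints were 649.7 and 493.8 CPM in treated wild-type cells, against 575 and 495 CPM in untreated wild-type cells. The groups overlapped almost wholly, with a log2 change of 0.09 (SE 0.140, 95% interval −0.21 to 0.40, adjusted p = 0.780 by edgeR). Mdm2, the E3 ligase that both marks p53 for destruction and is induced by it, had 120.4 and 78.4 CPM in treated and 169 and 92.9 CPM in untreated wild-type cells. Its replicates lay apart in both conditions, A above B. The interval of the log2 change of −0.41 ran from −1.08 to 0.27. Within each letter the treated level was the lower. With no filter on low counts Mdm2 was called, at −0.42 (adjusted p = 0.0410 by edgeR). A term for the replicate letter within each genotype also gave a call, at −0.37 (adjusted p = 0.0135 by edgeR). A term common to both genotypes gave none (adjusted p = 0.131 by edgeR). The letters were not taken as pairs. Over all genes these fits called 1048, 2109 and 931, against 599 in the fit reported.

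Cdkn1a encodes p21, the inhibitor of cyclin-dependent kinases through which p53 halts the cell cycle. It had 283 and 151.6 CPM in treated and 295 and 169 CPM in untreated wild-type cells, a log2 change of −0.10 with an interval from −0.78 to 0.58. Sesn2, a sestrin that restrains mTORC1 and is induced by ATF4 as well as by p53, showed the same spread, with 87.1 and 55.5 CPM in treated and 97.5 and 55.5 CPM in untreated wild-type cells. In both genes replicate A was high and replicate B was low in treated and untreated cells alike. Changes as large as those of Ei24 fell outside both intervals, that of Sesn2 running from −0.69 to 0.46 around a log2 change of −0.11.

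Among the apoptosis genes, Bax, which opens the outer mitochondrial membrane, had 41.8 and 29.7 CPM in treated and 34.9 and 31.9 CPM in untreated wild-type cells. Eda2r, a death-domain-free receptor of the TNF receptor family, had 21.9 and 12.9 CPM in treated and 27.8 and 16.1 CPM in untreated wild-type cells. Neither pair of groups was separated. Pidd1, the scaffold of the complex that activates caspase-2, had 13.8 and 14.1 CPM in treated and 11.2 and 9.82 CPM in untreated wild-type cells. These groups did not overlap, but the log2 change of 0.40 (SE 0.171, 95% interval 0.03 to 0.77) was not called (adjusted p = 0.220 by edgeR). Zmat3, an RNA-binding zinc finger protein, had 36.6 and 36.0 CPM in treated and 40.3 and 33.5 CPM in untreated wild-type cells, a log2 change of −0.02 (SE 0.135). Ei24 and Ccng1 were the 2 members that lay lower in both treated libraries, where 22.8% of all genes did.

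**Figure D2:**
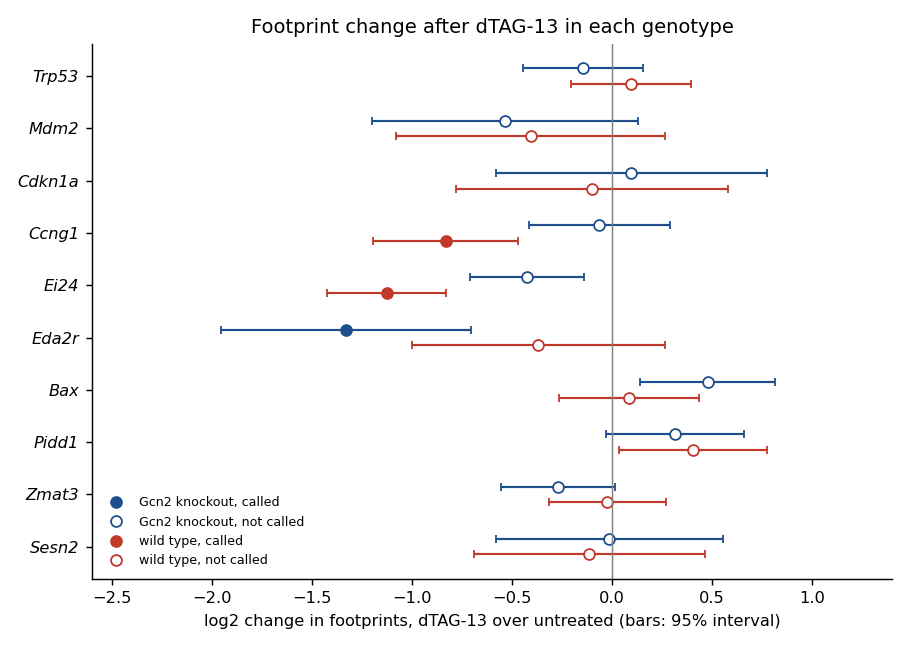
Log2 change of footprints after dTAG-13 (treated over untreated) for each member in Gcn2 knockout (blue) and wild-type cells (red), with 95% intervals from edgeR; filled points are called. Eda2r (−1.33) was called in knockout cells, and Ei24 (−1.13) and Ccng1 (−0.83) in wild-type cells.

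In Gcn2 knockout cells the same treatment lowered 1 of the 10 members, Eda2r, and none was called higher. Over all genes 8.88% were called, and 5.71% were called lower. The members' median log2 change was −0.11, beside 0.04 over all genes. It was −0.17 without treated replicate A and −0.17 without untreated replicate B. 5 members, Trp53, Mdm2, Ei24, Eda2r and Zmat3, lay lower in both treated than in both untreated knockout libraries, where 27.0% of all genes did.

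Eda2r had 14.4 and 13.2 CPM in treated knockout cells, against 39.8 and 29.4 CPM in untreated knockout cells. The groups were well separated, with a log2 change of −1.33 (SE 0.285, 95% interval −1.96 to −0.71, adjusted p = 0.0150 by edgeR), a 2.52-fold lower level. The call was lost without untreated replicate A (−1.10, adjusted p = 0.125), without treated replicate A (−1.42, adjusted p = 0.104) and without treated replicate B (−1.30, adjusted p = 0.159).

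The neighbouring cases were Ei24 and Bax. Ei24 had 45.1 and 47.3 CPM in treated and 67.9 and 56.1 CPM in untreated knockout cells, a log2 change of −0.42 (SE 0.132, 95% interval −0.71 to −0.14, adjusted p = 0.0643 by edgeR). Bax had 52.7 and 60.3 CPM in treated and 41.4 and 39.9 CPM in untreated knockout cells, a log2 change of 0.48 (SE 0.156, 95% interval 0.14 to 0.81, adjusted p = 0.0769 by edgeR). Neither pair of groups overlapped, Ei24 being lower and Bax higher after treatment, and both missed the threshold. Both passed it, along with Mdm2, when only the 4 knockout libraries were fitted and when no filter on low counts was used. Over all genes these fits called 1893 and 1658, and DESeq2 1192, against 1089 in the fit reported. DESeq2 called Ei24 too (adjusted p = 0.0406), as did the fit without untreated replicate B (adjusted p = 0.0492).

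Neither regulator was called. Trp53 had 564 and 551 CPM in treated and 600.1 and 635 CPM in untreated knockout cells, a log2 change of −0.15 (SE 0.139). Mdm2 had 147 and 131.6 CPM in treated and 239 and 165 CPM in untreated knockout cells, a log2 change of −0.53 with an interval from −1.20 to 0.13. The treated libraries lay below the untreated ones for both genes.

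The arrest genes gave no call either. Cdkn1a had 254 and 286 CPM in treated and 237 and 269 CPM in untreated knockout cells, a log2 change of 0.10. Ccng1 had 149 and 138 CPM in treated and 169 and 131.6 CPM in untreated knockout cells, a log2 change of −0.06 (SE 0.162). Both pairs of groups overlapped, Ccng1 included, whose footprints fell in wild-type cells.

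Of the remaining members, Pidd1 had 25.5 and 23.7 CPM in treated and 21.7 and 18.0 CPM in untreated knockout cells. Zmat3 had 45.5 and 47.5 CPM in treated and 58.8 and 53.5 CPM in untreated knockout cells. Neither of these separated pairs was called, with log2 changes of 0.31 and −0.27 (adjusted p = 0.251 and 0.227 by edgeR). Sesn2 had 98.0 and 101 CPM in treated and 96.1 and 105 CPM in untreated knockout cells, groups that overlapped.

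The difference between the genotypes was tested directly as an interaction (the change in knockout cells less that in wild-type cells), in which 0 of the 10 members passed edgeR's threshold. Over all genes 0.0489% passed. DESeq2 called 0 members too, and 3 had an unadjusted p under 0.05 by edgeR: Ei24, Ccng1 and Eda2r. So did 1229 of all 12267 genes. The differences were 0.70 for Ei24 (SE 0.189, 95% interval 0.29 to 1.11, adjusted p = 0.244), 0.77 for Ccng1 (SE 0.233, 95% interval 0.26 to 1.27, adjusted p = 0.277) and −0.96 for Eda2r (SE 0.404, 95% interval −1.85 to −0.07, adjusted p = 0.455). The estimated change was less negative in the knockout for Ei24 and Ccng1 and more negative for Eda2r. None is shown to depend on GCN2 at this threshold in the fit reported, which has no term for the replicate letter. With no filter on low counts, Ccng1 and Eda2r passed. A fit with a term for the replicate letter within each genotype called Ei24, Ccng1 and Eda2r, but the letters were not taken as pairs. Over all genes these fits called 192 and 733, against 6 in the fit reported. The answer thus depends on the fit.

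Without treatment, most members had a higher estimated footprint level in Gcn2 knockout than in wild-type cells, but none passed edgeR's threshold. The estimate was positive for 9 of the 10 members, Ei24 being the exception, while it was positive for 48.8% of all genes. The members' median log2 difference was 0.47, beside −0.01 over all genes, whose interquartile range was −0.15 to 0.13. The members' median was 0.78 without wild-type replicate A (9 positive) and 0.24 without wild-type replicate B (8 positive). 6 members, Trp53, Ccng1, Eda2r, Bax, Pidd1 and Zmat3, lay higher in both knockout than in both wild-type libraries, where 15.6% of all genes did. Only 0.00815% of all genes were called in this comparison.

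edgeR called 0 of the 10 members, 4 had an unadjusted p under 0.05, and DESeq2 called 2, Pidd1 (adjusted p = 0.00541) and Zmat3 (adjusted p = 0.0486). Of all 12267 genes, 733 had an unadjusted p under 0.05 by edgeR, and DESeq2 called 31 genes. Pidd1 stood at 19.8 ± 2.61 CPM in untreated knockout and 10.5 ± 1.00 CPM in untreated wild-type cells (SD, n = 2 each), with a log2 difference of 0.91 (SE 0.163, 95% interval 0.56 to 1.26, adjusted p = 0.174 by edgeR). Zmat3 stood at 56.1 ± 3.78 CPM in untreated knockout and 36.9 ± 4.83 CPM in untreated wild-type cells (SD, n = 2 each), with a log2 difference of 0.60 (SE 0.131, adjusted p = 0.249 by edgeR). Neither pair of groups overlapped.

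The other 2 under that level were Ccng1 and Eda2r. Ccng1 stood at 150.2 ± 26.3 CPM in untreated knockout and 102 ± 23.6 CPM in untreated wild-type cells (SD, n = 2 each), with a log2 difference of 0.56 (SE 0.162, adjusted p = 0.648 by edgeR). Eda2r stood at 34.6 ± 7.31 CPM in untreated knockout and 21.9 ± 8.31 CPM in untreated wild-type cells (SD, n = 2 each), with a log2 difference of 0.65 (SE 0.271, adjusted p = 0.787 by edgeR). Both, with Mdm2, Pidd1 and Zmat3, were called when no filter on low counts was used. That fit called 113 genes in all, against 1 in the fit reported.

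For the rest, the log2 differences were 0.62 for Mdm2 (95% interval −0.04 to 1.29), 0.39 for Sesn2 (−0.17 to 0.96), 0.28 for Bax (−0.06 to 0.62), 0.21 for Trp53 (−0.10 to 0.51), 0.12 for Cdkn1a (−0.55 to 0.80) and −0.09 for Ei24 (−0.37 to 0.19). With 1 of the 4 untreated libraries left out, the estimates ranged from 0.26 to 1.12 for Mdm2, 0.31 to 1.11 for Eda2r, 0.044 to 0.86 for Sesn2 and 0.34 to 0.82 for Ccng1, and from 0.77 to 1.04 for Pidd1 and 0.48 to 0.75 for Zmat3. The interval of Trp53 lay below that of Pidd1 and overlapped those of the other members, and the differences between genes were not tested. No RNA libraries of knockout cells were analysed here, so a difference in mRNA and one in translation cannot be told apart. This comparison shares its untreated libraries with the treatment comparisons, so a high value in an untreated knockout library raises the one and lowers the other: Eda2r, for example, had 39.8 CPM in untreated knockout replicate A, its highest footprint level.

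**Figure D3:**
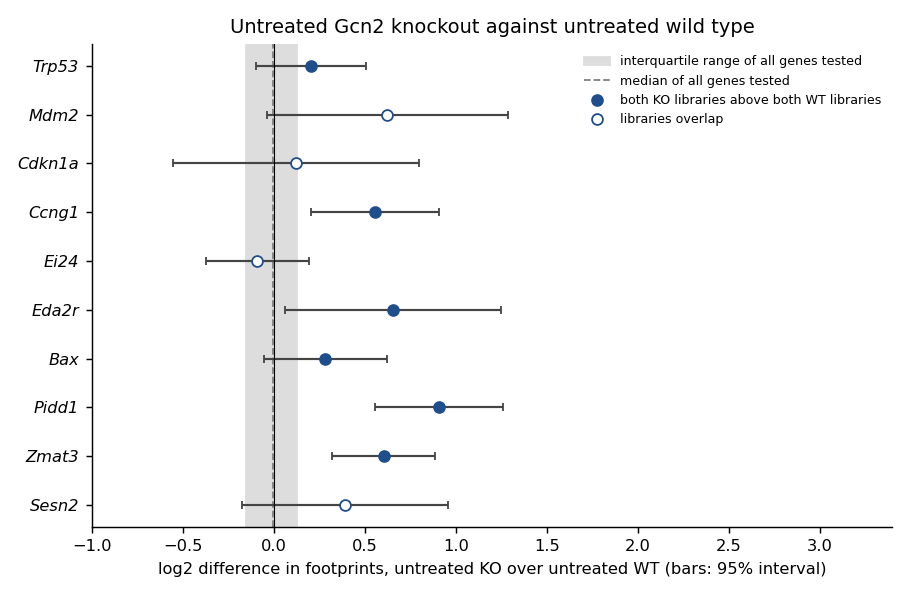
Log2 difference of footprints between untreated Gcn2 knockout and untreated wild-type cells for each member, with 95% intervals from edgeR, beside the median (dashed) and the interquartile range of all genes tested (grey, −0.15 to 0.13); filled points mark genes whose knockout libraries both lay above both wild-type libraries, not calls. 9 of 10 members had a positive estimate, the highest being Pidd1 (0.91), and none was called.

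In the poly(A) RNA of wild-type cells no member was called after dTAG-13. edgeR called 0 of the 10 members, 1 (Pidd1) had an unadjusted p under 0.05, and DESeq2 called 0. Over all 15955 genes 0.163% were called, and 819 had an unadjusted p under 0.05 by edgeR. The members' log2 changes ran from −0.09 for Cdkn1a to 0.19 for Pidd1 (SE 0.0726, 95% interval 0.04 to 0.33, adjusted p = 0.905 by edgeR).

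The RNA replicates were close, so the intervals were narrow. Ei24 RNA was 105.9 and 112 CPM in treated and 117.6 and 111 CPM in untreated wild-type cells, a log2 change of −0.07 with an interval from −0.18 to 0.04. Ccng1 RNA was 165 and 179 CPM in treated and 182 and 174 CPM in untreated wild-type cells, a log2 change of −0.05 with an interval from −0.15 to 0.05. The footprint changes of both genes lay outside these intervals.

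The mRNAs of p53, Mdm2 and Cdkn1a were not called either. Trp53 RNA was 437 and 437 CPM in treated and 427 and 433 CPM in untreated wild-type cells, a log2 change of 0.02 (SE 0.0445). Mdm2 RNA was 94.1 and 95.01 CPM in treated and 87.7 and 95.1 CPM in untreated wild-type cells, a log2 change of 0.05 (SE 0.0582). Cdkn1a RNA was 81.7 and 82.9 CPM in treated and 86.3 and 89.3 CPM in untreated wild-type cells. The groups of Cdkn1a did not overlap, the treated level being the lower, but the change of −0.09 had an interval from −0.21 to 0.02.

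The RNA levels of the other members were 41.6 and 45.5 CPM in treated against 41.1 and 40.9 CPM in untreated wild-type cells for Eda2r, a log2 change of 0.08. For Bax they were 274 and 263 CPM against 293 and 271 CPM, a log2 change of −0.07, and for Zmat3 143 and 147 CPM against 141 and 146 CPM, a log2 change of 0.01. Pidd1 had 43.8 and 44.5 CPM in treated and 38.1 and 39.4 CPM in untreated wild-type cells, a pair of groups that did not overlap in RNA nor in footprints. Trp53, Eda2r and Sesn2 also lay higher in both treated RNA libraries, and Cdkn1a lower. The share of all genes separated in RNA, or higher in wild-type footprints, was not counted. Sesn2 had 104 and 99.8 CPM in treated and 94.2 and 97.2 CPM in untreated wild-type cells, a log2 change of 0.09.

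Footprints and RNA were then put into 1 model over 12887 genes, in which the footprint change beyond the RNA change, the change in translational efficiency, was tested as an interaction. Ei24 was the 1 member called, with a log2 change in translational efficiency of −1.06 (SE 0.136, 95% interval −1.36 to −0.76, adjusted p = 0.00978 by edgeR). Over all genes 1.47% were called, and 0.691% were called lower. The call for Ei24 was lost without any single RNA library, where 0 of all genes passed, although its estimate stayed between −1.11 and −1.02 (adjusted p = 0.110 to 0.123).

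Ccng1 came next, with −0.78 (SE 0.198, 95% interval −1.22 to −0.35, adjusted p = 0.0840 by edgeR), and was called by DESeq2, with no filter on low counts and without untreated footprint replicate B. Over all genes DESeq2 called 435 and the fit with no filter 459, against 190 in the fit reported. The remaining 8 members lay between −0.47 for Eda2r and 0.21 for Pidd1, none of them called. Cdkn1a was at −0.01 with an interval from −0.93 to 0.90, which holds sizes as large as the change of Ccng1.

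**Figure D4:**
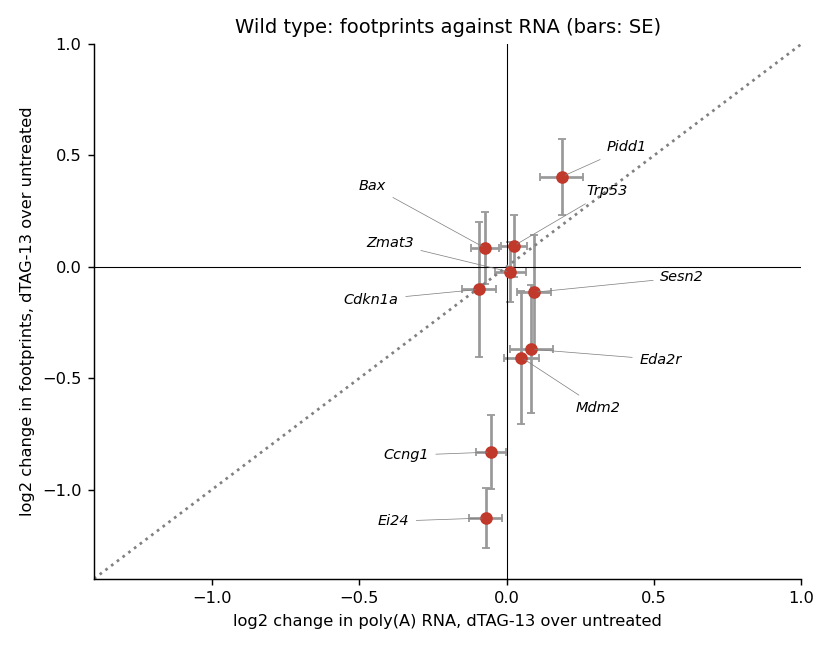
Log2 change after dTAG-13 in wild-type cells (treated over untreated) in footprints against that in poly(A) RNA, 1 point a member with SE bars from edgeR; the dotted line marks equal changes. RNA changes lay between −0.09 and 0.19, while footprint changes reached −1.13 for Ei24 and −0.83 for Ccng1.

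The ratio of footprint to RNA CPM within wild-type cells placed the members at very different ranks, as a description, since the sources used here do not give the regions counted for the 2 assays. Cdkn1a had the highest ratio of the members, 2.64 in treated and 2.64 in untreated wild-type cells, above 89.1% and 89.2% of the genes compared. Trp53 stood at 1.31 in treated and 1.25 in untreated wild-type cells, and Mdm2 at 1.05 in treated and 1.43 in untreated ones. These were the 3 members above the median gene in both conditions, which was 0.745 in treated and 0.735 in untreated wild-type cells.

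Bax stood lowest, with a ratio of 0.133 in treated and 0.118 in untreated wild-type cells, above 5.25% and 4.40% of genes. Zmat3 (0.251 in treated and 0.257 in untreated) and Pidd1 (0.316 in treated and 0.272 in untreated) were also among the low ratios. Ei24 and Ccng1 had close ratios before treatment and lower ones after it. Ei24 had 0.277 in treated and 0.577 in untreated wild-type cells, and Ccng1 0.335 in treated and 0.573 in untreated wild-type cells. Eda2r had 0.400 in treated and 0.535 in untreated wild-type cells, and Sesn2 0.700 in treated and 0.800 in untreated ones.

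The members differed in how well their replicates matched. In untreated wild-type footprints replicate A exceeded replicate B for every member, with log2 ratios of A over B from 0.13 to 0.86. The members' median log2 ratio was 0.44 in treated and 0.37 in untreated wild-type footprints. Over all genes it was −0.0001 and −0.0004. For 4 members the wild-type footprint ratio exceeded 0.5 on the log2 scale in treated and untreated cells alike. The log2 ratio of A over B was 0.62 in treated and 0.86 in untreated cells for Mdm2, 0.90 and 0.80 for Cdkn1a, 0.76 and 0.79 for Eda2r, and 0.65 and 0.81 for Sesn2. Of all genes, 3.87% exceeded 0.5 in both conditions, a limit chosen after the values were seen. Ei24, Pidd1 and Zmat3 were close between replicates, with ratios from −0.03 to 0.02 in treated and 0.17 to 0.27 in untreated cells.

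In knockout footprints the ratio of A over B lay between −0.19 and 0.16 in treated cells and between −0.18 and 0.53 in untreated cells, the highest being Mdm2, and none of the members exceeded 0.5 in both. In RNA it lay between −0.13 and 0.11. Leaving out 1 wild-type footprint library turned the sign of the treatment change of 7 members, Trp53, Mdm2, Cdkn1a, Eda2r, Bax, Zmat3 and Sesn2. Such a fit sets the mean of A and B in 1 condition against a lone A or B in the other. Where A and B differ alike in both conditions, the sign can turn although the effect of treatment is stable. Within a letter, Mdm2, Cdkn1a and Eda2r were lower in treated wild-type cells for both A and B, and Sesn2 for A only. What separates replicate A from replicate B is not stated in the labels and was not tested.

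**Figure D5:**
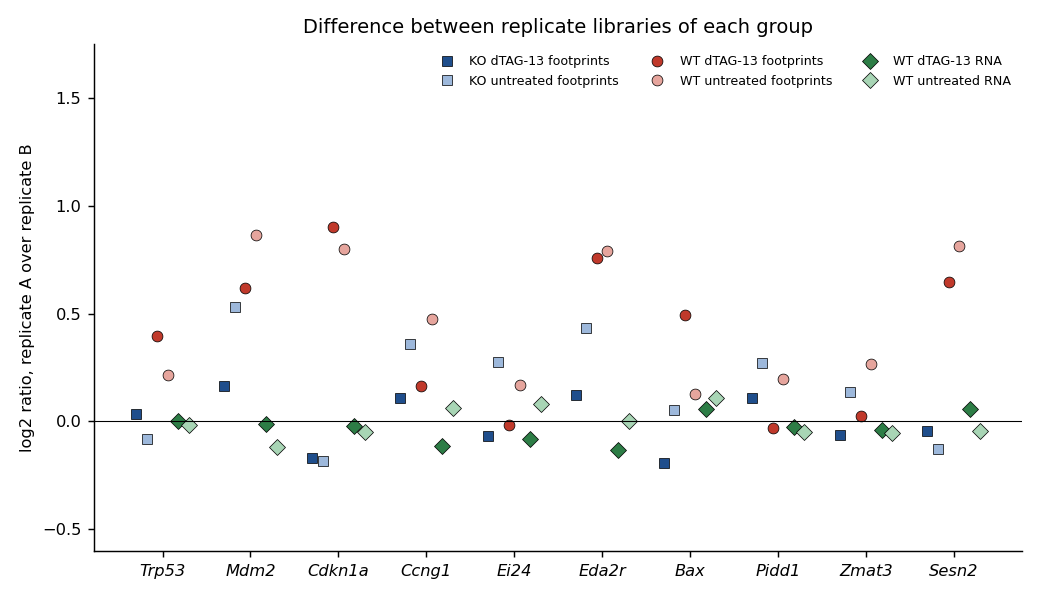
Log2 ratio of replicate A over replicate B for each member, 1 point for each of the 6 groups (squares knockout footprints, circles wild-type footprints, diamonds wild-type RNA; dark treated, light untreated). Mdm2, Cdkn1a, Eda2r and Sesn2 lay above 0.5 in both wild-type footprint groups, and RNA ratios lay between −0.13 and 0.11.

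Of 53 other genes of the pathway (regulators of p53, its family members, and further targets), 49 were tested. In wild-type footprints 0 rose and 1 fell after treatment, Crebbp, which encodes a histone acetyltransferase that p53 recruits (log2 change −0.44, adjusted p = 0.0429 by edgeR). Crebbp had 143 and 125 CPM in treated and 188 and 174 CPM in untreated wild-type cells. The median of the 49 genes was 0.03, and none of the 12 tested arrest and repair targets nor of the 10 tested apoptosis targets was called. Those shares compare with 4.88% of all genes called.

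In knockout footprints 2 rose and 3 fell, beside 8.88% of all genes called, and the median of the 49 was −0.14. Crebbp fell again, by 0.73 on the log2 scale (adjusted p = 0.00180), with 112.8 and 110.3 CPM in treated and 184 and 186 CPM in untreated knockout cells. Apaf1, the core of the apoptosome, fell by 0.89 (adjusted p = 0.00807) and Chek1, a DNA damage checkpoint kinase, by 0.53 (adjusted p = 0.0210 by edgeR). Atr, the kinase that activates CHEK1, rose by 0.53 (adjusted p = 0.0218). Rpl5, a ribosomal protein that binds MDM2, rose by 0.51 (adjusted p = 0.0268). It was named after its value was seen, and ribosomal proteins have many near-identical copies, so its counts are uncertain.

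None of the 49 was called by edgeR in the interaction, in untreated knockout against wild-type cells, in RNA or in translational efficiency, where 3, 10, 4 and 5 had an unadjusted p under 0.05. Over all genes, 1229 of 12267, 733 of 12267, 819 of 15955 and 1836 of 12887 did. In untreated knockout against wild-type cells 10 of the 12 tested arrest and repair targets and 9 of the 10 tested apoptosis targets had a positive estimate, with median log2 differences of 0.44 and 0.33. Over all genes 48.8% were positive, with a median of −0.01. Most of these targets were lower in untreated wild-type replicate B than in A, such as Phlda3 (102.8 CPM in A, 40.9 in B). Only Polh (8.54 in A, 11.4 in B), Plk3, Rrm2b, Apaf1 and Perp were higher in B. A low wild-type library raises these estimates, and the medians are not given with a library left out. For the 19 regulators of p53, 7 estimates were positive, with a median of −0.11. The 7 metabolic and stress targets had 3 positive estimates and a median of −0.07.

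By likeness of footprint profile over the 8 libraries, the root mean square difference of log2 CPM after centring each gene on its own mean, the 3 genes nearest to Trp53 among 4781 were Bag3 (0.0512), Cryz (0.0562) and Zfp532 (0.0574). Those nearest to Mdm2 were Slc25a36 (0.130), Stag3 (0.154) and Trp53inp1 (0.158), the last of which is itself a p53 target. Trp53inp1 had 154 and 144 CPM in treated and 208 and 157 CPM in untreated knockout cells, and 116.8 and 85.2 CPM in treated and 139 and 107 CPM in untreated wild-type cells. Among the members ranked, Sesn2 was the 37th and Zmat3 the 50th nearest to Mdm2, Ccng1 the 108th and Cdkn1a the 219th. Trp53 was the 562nd, Ei24 the 644th and Bax the 1398th. The member nearest to Trp53 was Zmat3, at rank 2589. Only genes above a limit on average level were ranked, which left out Eda2r and Pidd1. The measure takes in the size of a gene's variation as well as its shape, so a far rank can reflect either. The profiles share depth and library effects, and the likeness carries no test.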

How the data were processed

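The authors deposited raw counts per gene symbol, 1 table for ribosome footprints and 1 for poly(A) RNA. CASAVA 1.4, cutadapt, HISAT2 2.1.0 and mm10 are named per the submitters' processing notes. The counting tool, annotation, strand setting and handling of multi-mapping reads are not stated in any source used, so genes with near-identical copies or antisense partners are uncertain. For treated knockout replicate B, whose description repeats the column of replicate A, the column with the letter of the title was used.

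From the deposited counts, edgeR 4.0.16 in R 4.3.3 was run with filterByExpr (minimum count 10), TMM scaling, a robust quasi-likelihood fit and Benjamini-Hochberg adjustment over all genes tested, with a threshold of 0.05. 1 fit by group held all 8 footprint libraries (4 residual degrees of freedom), the 4 RNA libraries by treatment (2), and the 8 wild-type libraries of both assays by assay, treatment and their interaction (4), the 20134 symbols joined across the tables. The SE of a log2 change comes from its test statistic. The scripts were tested on simulated data. Alternatives were DESeq2 1.42.0, RLE scaling, no filter, only the libraries compared, a replicate block and each library left out. Replicates are labelled biological, and p-values measure the spread between these libraries.

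All 10 members are named, other pathway genes where called (up to 4 a comparison by smallest adjusted p). Rpl5 is named beyond that limit, after its value was seen. The members, lists and tests were chosen with earlier results of these data known.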

Additional observations from a re-analysis of the deposited data

How the results depend on the processing

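With 2 libraries a group, each leave-out fit takes the lone library to vary like the other groups. Of members called after treatment in wild-type footprints, 2 in the fit reported, no filter called 3 (Mdm2 added), 1 was called with only the 4 libraries compared and 1 to 2 with a library left out. In knockout footprints (1 called) DESeq2 called 2, no filter 4 and only the 4 libraries compared 4, and leaving out a library gave 0 to 2. In the interaction (0 called) no filter gave 2. Between untreated genotypes (0 called) DESeq2 called 2 and no filter 5. In translational efficiency (1 called) DESeq2 called 2, no filter 2, and leaving out a library gave 0 to 2. RLE scaling moved no count of members, and no alternative called a member in RNA. The cause was not tested. Over all genes, no filter called 1048 genes in wild-type and 1658 in knockout footprints, and the DESeq2 counts were 806 and 1192, against 599 and 1089. In the interaction DESeq2 called 116 and no filter 192, against 6, and between untreated genotypes 31 and 113, against 1. In translational efficiency DESeq2 called 435 and no filter 459, against 190. In RNA DESeq2 called 8, against 26. With only the 4 libraries compared, 19 genes were called in wild-type and 1893 in knockout footprints. A library left out gave 197 to 659 calls in wild-type and 215 to 601 in knockout footprints, 0 to 32 in the interaction, 1 to 10 between untreated genotypes, 14 to 267 in RNA and 0 to 671 in translational efficiency.

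The labels name no batch behind the replicate letters. Same-lettered libraries deviated together across genes between treated and untreated wild-type footprints (correlation 0.490), less so between untreated knockout and untreated wild-type footprints (0.129) and between treated and untreated knockout footprints (0.101), and hardly in RNA (0.0147), between treated knockout and treated wild-type footprints (0.0245), or in the other 2 combinations (0.0486 and 0.0116). The letters were not taken as pairs, since not every correlation was over 0.1. Between treated and untreated wild-type footprints, where the correlation was 0.490, the fit reported therefore counts this shared difference as spread. With a replicate block, 4 members were called in knockout footprints (Eda2r, Ei24, Bax and Mdm2), 0 in the interaction, 1 (Pidd1) between untreated genotypes and 2 in translational efficiency (Ei24 and Ccng1). With a replicate block within genotype, 3 were called in wild-type footprints (Ei24, Ccng1, and Mdm2 at −0.37, adjusted p = 0.0135), the same 4 in knockout footprints, and 3 in the interaction (Ccng1 with adjusted p = 0.00201, Ei24 with 0.00706 and Eda2r with 0.00173, by edgeR). Over all genes the replicate block gave 931 calls in wild-type and 1564 in knockout footprints, 39 in the interaction, 14 between untreated genotypes, 16 in RNA and 404 in translational efficiency, and the replicate block within genotype gave 2109, 3149 and 733 in the first 3 of these.

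Every reversed direction of a member came from leaving out 1 library, which sets a lone A or B against means of A and B. In wild-type footprints the log2 changes then ranged from −0.12 to 0.28 for Trp53, −0.78 to 0.089 for Mdm2, −0.62 to 0.36 for Cdkn1a, −0.77 to 0.079 for Eda2r, −0.17 to 0.33 for Bax, −0.15 to 0.12 for Zmat3 and −0.46 to 0.35 for Sesn2. In knockout footprints they ranged from −0.027 to 0.19 for Cdkn1a, −0.23 to 0.13 for Ccng1 and −0.077 to 0.048 for Sesn2. In the interaction they ranged from −0.62 to 0.24 for Mdm2, −0.26 to 0.71 for Cdkn1a, −0.22 to 0.050 for Pidd1 and −0.37 to 0.45 for Sesn2. Between untreated genotypes they ranged from −0.22 to 0.58 for Cdkn1a and −0.23 to 0.042 for Ei24. In RNA they ranged from −0.0083 to 0.11 for Mdm2, −0.11 to 0.0043 for Ccng1 and −0.014 to 0.040 for Zmat3. In translational efficiency they ranged from −0.15 to 0.25 for Trp53, −0.84 to 0.031 for Mdm2, −0.53 to 0.44 for Cdkn1a, −0.10 to 0.40 for Bax, −0.17 to 0.10 for Zmat3 and −0.57 to 0.25 for Sesn2.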
